A study of Mus musculus with 4 samples.

Results

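Interferon gamma, its receptor and the first steps of its signalling were followed in single cells of mouse lungs that carried tumours. The genes are Ifng, Ifngr1, Ifngr2, Jak1, Jak2, Irf1 and Socs1, chosen by name as the pathway from ligand to early target and feedback gene, and they are 7 of the 31053 genes in the deposited table. The tumours came from KP cells, a mouse lung cancer line without p53, given into the bloodstream of B6 mice. The injected cells were wild type (WT) or knocked out (KO) for Asf1a, a gene for a histone chaperone. Mice with either kind of tumour received isotype IgG or an antibody against PD-1, a receptor that restrains T cells, over 1 week, with 200 µg of antibody for each mouse and 3 injections weekly. WT tumours gave the libraries WT IgG and WT anti-PD-1, KO tumours gave KO IgG and its partner KO anti-PD-1, and all 4 share the KP genotype. Where 4 values follow each other without names, they stand in that order. Asf1a was deleted only in the injected tumour cells, so immune cells and stroma of every library were those of the host. Whole perfused lungs were digested, live cells were sorted with DAPI, and RNA was captured with the 10x 3′ v2 kit, so normal lung and tumour were sampled as one tissue. The labels do not say how many mice stand behind a library, nor whether the KO cells are 1 clone. With 1 library per group no test was possible, and every interval below is a 95% interval that covers counting error only, not the spread between mice.

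Interferon gamma is made by activated T cells and NK cells. It binds a receptor built from 2 kinds of chain: IFNGR1, which binds the ligand and carries JAK1, and IFNGR2, which carries JAK2. Among the earliest genes to respond are Irf1, a transcription factor that extends the response, and Socs1, which inhibits the kinases. In lung tumours the pathway is known for raising antigen presentation and the T cell-attracting chemokines CXCL9 and CXCL10 in tumour and myeloid cells.

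Promoter windows of the ligand and of both response genes are shown because they are the places where signalling could meet these genes. Each window runs from 250 bases before to 50 bases after a start site in RefSeq, build GRCm38.p6, and capitals mark matches to a GAS motif (TTCNNNGAA) or to an ISRE-type motif (GAAANNGAA), searched on both strands. The Ifng window is chr10:118440796-118441095 on the plus strand. The Irf1 window, for the first of its RefSeq starts, is chr11:53769764-53770063 on the plus strand. The Socs1 window is chr16:10785487-10785786 on the minus strand, written as that strand reads.
Ifng: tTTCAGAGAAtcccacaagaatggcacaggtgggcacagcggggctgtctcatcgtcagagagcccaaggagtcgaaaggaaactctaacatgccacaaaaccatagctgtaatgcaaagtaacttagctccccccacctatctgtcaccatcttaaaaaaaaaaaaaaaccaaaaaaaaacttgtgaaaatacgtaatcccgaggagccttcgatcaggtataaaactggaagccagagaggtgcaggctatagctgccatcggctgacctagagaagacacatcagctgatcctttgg
Irf1: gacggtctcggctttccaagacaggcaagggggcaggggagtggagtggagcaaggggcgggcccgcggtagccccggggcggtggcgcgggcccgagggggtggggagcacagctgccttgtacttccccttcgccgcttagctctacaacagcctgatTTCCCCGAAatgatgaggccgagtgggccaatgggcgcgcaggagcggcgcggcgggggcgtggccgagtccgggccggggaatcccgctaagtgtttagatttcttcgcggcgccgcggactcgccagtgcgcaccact
Socs1: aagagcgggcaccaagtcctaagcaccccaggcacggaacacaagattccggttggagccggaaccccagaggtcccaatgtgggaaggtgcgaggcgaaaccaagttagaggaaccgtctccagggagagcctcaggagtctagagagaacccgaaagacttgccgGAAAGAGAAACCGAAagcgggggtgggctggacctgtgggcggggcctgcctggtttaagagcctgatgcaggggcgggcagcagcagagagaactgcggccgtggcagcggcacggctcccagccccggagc
In Ifng the match TTCAGAGAA begins 249 bases before the start, and in Irf1 the match TTCCCCGAA begins 90 bases before it. In Socs1 a pair of overlapping matches, GAAAGAGAA and GAAACCGAA, begin 83 and 77 bases before the start. A GAS match is present in 2726 of 32851 promoter windows of this length (8.30%) and an ISRE-type match in 2812 (8.56%). The window of the other Irf1 start and the windows of Ifngr1, Ifngr2, Jak1 and Jak2 hold neither set of letters. A match is a description of the letters and was not measured as a binding site.

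The libraries held 6074 to 6683 barcodes and 16078095 to 22506737 UMIs (unique molecular identifiers, each a counted RNA molecule). After filtering 5595 to 6187 cells remained, with a median of 1220 to 2026 UMIs, the KO libraries being the shallower. Clusters were named by markers, so each class below means cells like that type. Asf1a in tumour cells stood at 34.7 CPM (61 UMIs) in WT IgG, 28.2 (46) in WT anti-PD-1, 10.1 (28) in KO IgG and 7.19 (13) in KO anti-PD-1. CPM here is UMIs of a gene per 1000000 UMIs of the class. Asf1a was thus lower in tumour cells of both KO libraries, and it was not at 0. Cells other than T and NK cells had 12.8 to 16.2 CPM of Asf1a in every library. RNA of club cells, the secretory cells of the airway, was present in every class and differed between libraries. Its 4 markers summed to 30.2 to 121 CPM per class in WT IgG, 5.52 to 50.8 in WT anti-PD-1, and 0.893 to 33.9 in KO IgG. In KO anti-PD-1 they summed to 99.6 to 518 CPM. At least 1 of Scgb3a2, Cyp2f2 and Bpifa1 was at 0 in every class of every library. With free RNA subtracted (for Ifng the level in B cells and neutrophils, for the other genes 5% of the whole library's profile), 180 of 180 ratios stayed within their counting intervals. For genes other than Ifng the same 5% was taken in every library, so unequal amounts of free RNA between libraries were not tested. No cell profile was identical between libraries, and barcodes shared between libraries could not be counted because only 1 barcode list, matching WT IgG, was used here.

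Ifng was found in T cells and NK cells, and the KO IgG library had little of it in T cells. T cells had 60.1 CPM (53.2 to 67.6, 275 UMIs in 1606 cells) in WT IgG. It was 80.6 CPM (72.4 to 89.4, 353 UMIs in 1872 cells) in WT anti-PD-1, 13.5 CPM (8.65 to 20.1, 24 UMIs in 946 cells) in KO IgG. The 1001 T cells of KO anti-PD-1 had 84.8 CPM (72.3 to 98.9, 163 UMIs). KO IgG stood alone, with an interval below those of the other libraries. KO IgG was 4.45-fold below WT IgG (log2 ratio −2.15, −2.82 to −1.55), and KO anti-PD-1 was 6.28-fold above KO IgG (log2 2.65, 2.03 to 3.33). In WT the anti-PD-1 library was higher by log2 0.42 (0.19 to 0.66), under the 1.5-fold limit used to name a difference. The antibody ratio in KO exceeded that in WT by log2 2.23 (1.57 to 2.89). Under anti-PD-1 the KO and WT levels differed by log2 0.07 (−0.20 to 0.35).

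NK cells kept Ifng in all 4 libraries. They had 86.6 CPM (66.7 to 111, 64 UMIs) in WT IgG, 95.7 (74.3 to 121, 68 UMIs) in WT anti-PD-1, 69.8 (47.7 to 98.5, 32 UMIs) in KO IgG and 111 (83.8 to 143, 57 UMIs) in KO anti-PD-1. These intervals overlap. KO IgG against WT IgG gave log2 −0.31 (−0.97 to 0.32), and KO anti-PD-1 against KO IgG gave 0.67 (0.02 to 1.34). Of the KO IgG UMIs, 14 of 32 came from 38 cells of an NK sub-cluster led by Scgb1a1, the club cell gene, and in KO anti-PD-1 23 of 57 came from 119 such cells. In WT IgG that sub-cluster held 6 cells. T cells held 76.8% of the Ifng UMIs of the WT IgG library and 77.4% in WT anti-PD-1, against 40.0% in KO IgG and 65.5% in KO anti-PD-1. In KO IgG, NK cells held 53.3%. In each library the other classes stood below T and NK cells, and among themselves they could not be ordered by their intervals.

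**Figure D1:**
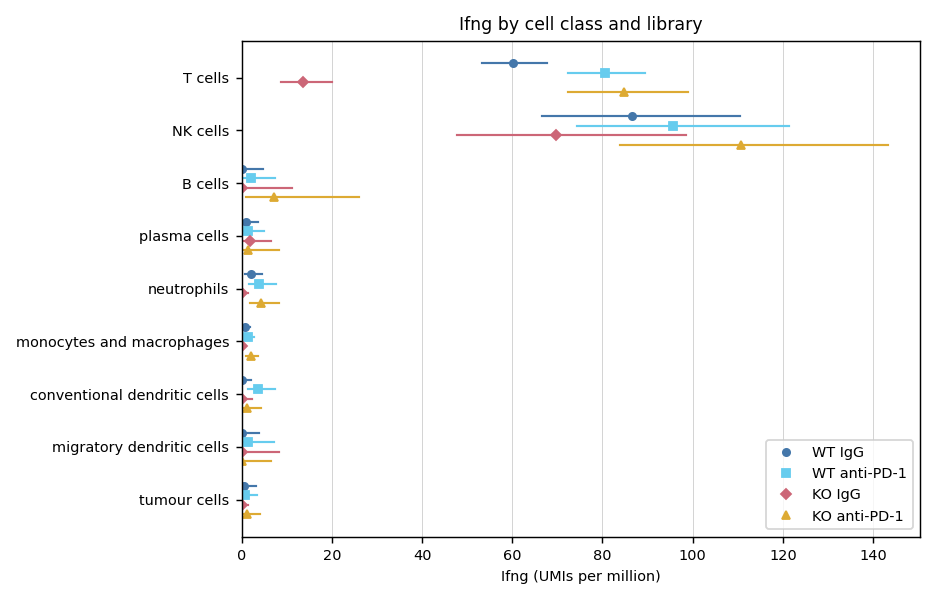
Ifng in each cell class and library, in CPM on the horizontal axis, with 95% counting intervals as lines. T cells of KO IgG, at 13.5 CPM, lie below the other 3 libraries, while the NK intervals overlap.

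Cells other than T and NK cells together had 0.819 CPM of Ifng (13 UMIs) in WT IgG, 1.89 (30) in WT anti-PD-1, 0.141 (2) in KO IgG and 2.0 (25) in KO anti-PD-1. Neutrophils had 5, 8, 0 and 8 of these UMIs in the same order, and monocytes and macrophages 4, 9, 0 and 10. The traces moved with markers of T cells in the same cells. In neutrophils the 8 T cell markers summed to 263, 301, 143 and 476 CPM, against 4332 to 5721 CPM in T cells, and none of them was at 0. The part of stray T cell RNA in these traces was not tested.

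The share of T cells with an Ifng UMI was 7.72% in WT IgG (124 cells), 12.1% in WT anti-PD-1 (227), 2.43% in KO IgG (23) and 8.29% in KO anti-PD-1 (83). Median depth was 2452, 2056, 1642 and 1581 UMIs per T cell in that order. With each cell thinned to 1000 UMIs the shares were 4.12% (3.15 to 5.27) of 1458 cells, 6.14% (5.0 to 7.43) of 1581, 0.914% (0.368 to 1.87) of 766 and 5.39% (3.88 to 7.27) of 742. The KO IgG share thus remained below the others at equal depth. B cells, which should lack Ifng, gave 0, 0.193, 0 and 1.87% after thinning, at median depths of 1614, 1499, 1039 and 1452 UMIs. In KO IgG, neutrophils and monocytes and macrophages held no Ifng UMI, with upper limits of 1.38 and 0.768 CPM, below the interval of the T cells there (8.65 to 20.1 CPM). The B cells of that library were too few to bound it as closely, with no UMI and an upper limit of 11.1 CPM.

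The libraries also differed in how Ifng was spread over T cells. In WT IgG 1 T cell held 25 UMIs, the top 10 cells held 40.0% of the UMIs, and 13 cells had 5 or more. In WT anti-PD-1 the highest cell had 7 UMIs and the top 10 held 15.3%. In KO anti-PD-1 1 cell held 26 UMIs and the top 10 held 41.1%. In KO IgG no cell had more than 2 UMIs. Without the top cell of each library none of the Ifng ratios in T or NK cells left its interval. The intervals treat each UMI as independent, so they do not cover this uneven spread over cells and are too narrow for it.

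Activated T cells carried most of the transcript, and in anti-PD-1 libraries the carriers differed by tumour genotype. In activated CD4 T cells Ifng stood at 156 CPM (130 to 186, 124 UMIs) in WT IgG, 131 (106 to 160, 97 UMIs) in WT anti-PD-1, 35.8 (16.4 to 67.9, 9 UMIs) in KO IgG and 212 (176 to 253, 120 UMIs) in KO anti-PD-1. KO IgG was lowest and KO anti-PD-1 highest among these, with log2 2.57 (1.59 to 3.73) between them. In activated CD8 T cells it stood at 202 CPM (166 to 243, 110 UMIs) in WT IgG, 146 (126 to 169, 187 UMIs) in WT anti-PD-1, 62.9 (25.3 to 130, 7 UMIs) in KO IgG and 86.6 (56.6 to 127, 26 UMIs) in KO anti-PD-1. Here both KO libraries lay below WT IgG, and KO anti-PD-1 against WT anti-PD-1 gave log2 −0.76 (−1.41 to −0.16). For activated CD4 T cells the same comparison gave 0.69 (0.29 to 1.09). Activated CD8 T cells provided 53.0% of the T cell UMIs of Ifng in WT anti-PD-1 and 16.0% in KO anti-PD-1. Activated CD4 T cells provided 27.5% and 73.6%.

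The make-up of the T cells moved with these levels. Activated CD4 T cells were 19.2% of T cells in WT IgG, 18.1% in WT anti-PD-1, 14.4% in KO IgG and 35.1% in KO anti-PD-1. Activated CD8 T cells were 15.6%, 35.8%, 7.82% and 18.5% in the same order, and naive CD4 T cells 28.1%, 14.7%, 28.1% and 3.30%. When each T subset was held at the share of UMIs it had in WT IgG, Ifng stood at 60.1, 57.5, 19.9 and 54.4 CPM. At that fixed make-up KO IgG against WT IgG was log2 −1.60, against −2.15 as found, and WT anti-PD-1 against WT IgG was −0.06. KO anti-PD-1 against KO IgG became 1.45. Cycling T cells had 51.4, 91.4, 37.3 and 52.2 CPM of Ifng, the KO IgG value resting on 4 UMIs. Naive CD4 T cells had 0.943, 3.24, 0 and 0 CPM, and regulatory T cells 0, 22.5, 11.3 and 7.28 CPM, so these subsets held little of the transcript in all libraries.

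**Figure D2:**
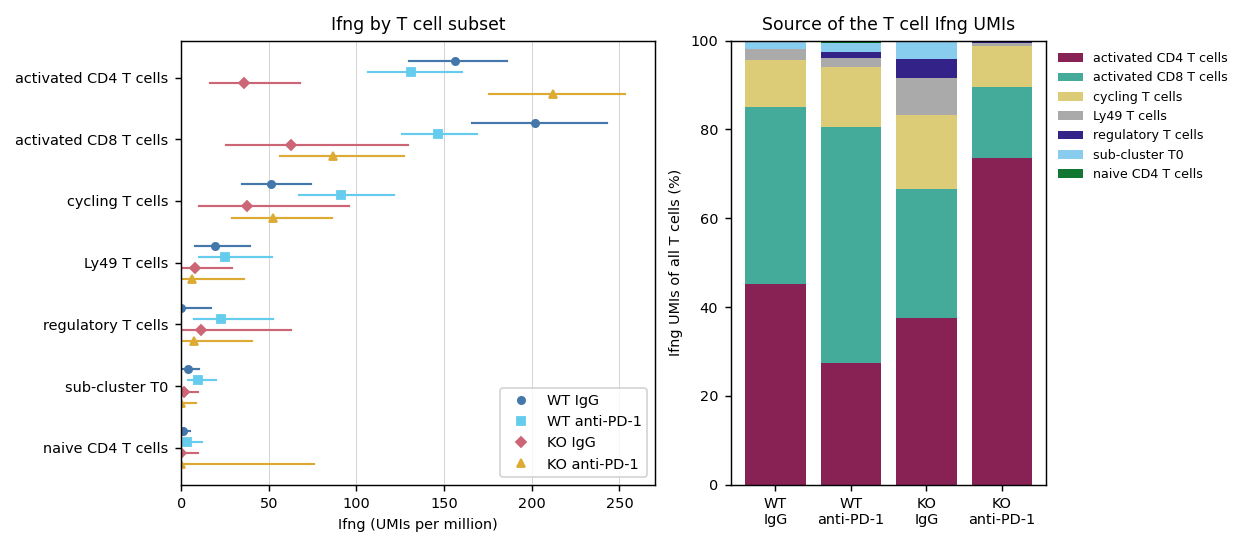
Ifng in T cell subsets by library, in CPM with 95% counting intervals, beside the share of each library's T cell Ifng UMIs that each subset held. Activated CD4 T cells are highest in KO anti-PD-1 at 212 CPM, and activated CD8 T cells are highest in WT IgG at 202 CPM.

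T cells with an Ifng UMI were compared with those without one inside each library, as a description. All T subsets were pooled, and activated CD4 and CD8 T cells held most of the Ifng UMIs. Cells with and without Ifng thus differed in subset, and the part of subset in the values below was not tested. The cells with Ifng were deeper, with a median of 2706 against 2428 UMIs in WT IgG and 2066 against 1533 in KO anti-PD-1. They carried more of the chemokine genes Ccl3 and Ccl4, with Ccl4 at 2169 against 207 CPM in WT IgG, 3615 against 654 in WT anti-PD-1, 2555 against 177 in KO IgG and 6505 against 811 in KO anti-PD-1. Gzmb, which encodes the killing protease granzyme B, was higher with Ifng by log2 1.34, 1.37 and 2.80 in WT IgG, WT anti-PD-1 and KO IgG. In KO anti-PD-1 it was lower by comparison, at log2 −0.67 (−1.28 to −0.12). Xcl1, a chemokine for dendritic cells, was higher by log2 2.0, 2.06 and 1.89 in the first 3 libraries and by 0.16 (−0.17 to 0.49) in KO anti-PD-1. The ligand-binding chain Ifngr1 was lower in cells with Ifng, by log2 −0.39 in WT IgG, −0.44 in WT anti-PD-1, −0.20 (−0.81 to 0.35) in KO IgG and −0.77 in KO anti-PD-1. Irf1 showed no gain in the cells with Ifng, at log2 −0.02 in WT IgG, −0.59 in WT anti-PD-1 and −1.72 in KO anti-PD-1, and the 23 cells of KO IgG held no UMI of it.

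Genes with the pattern most like that of Ifng were ranked by Pearson r of log levels among 11829 genes. Over 36 points, 9 classes in each of 4 libraries, the likest were Baiap3 (r = 0.977), Gzmb (0.973), Fasl (0.970), Wdr95 (0.965) and Gata3 (0.965). Over 51 points of T and NK subsets they were Ccl4 (0.815), Tmsb4x (0.810), Ccl3 (0.796), Nr4a2 (0.795) and Bhlhe40 (0.774). The points share libraries and depth, so r describes likeness here and nothing more.

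The ligand-binding chain Ifngr1 was highest in regulatory T cells and NK cells and its level differed by under 1.5-fold between libraries in NK cells, T cells as a whole, neutrophils, monocytes and macrophages, and conventional dendritic cells. Regulatory T cells had 1162, 1375, 1480 and 1121 CPM. NK cells had 859 (794 to 929), 919, 900 and 833 CPM, and all T cells 397, 466, 446 and 442 CPM. Monocytes and macrophages were next, at 339 (324 to 355), 391, 390 and 397 CPM, and conventional dendritic cells lay in the same range, at 386, 396, 358 and 354 CPM. Neutrophils, at 159 to 200 CPM, and tumour cells, at 74.8 to 143 CPM, lay lower. B cells had 82.4, 97.6, 126 and 144 CPM, higher in the KO libraries. Migratory dendritic cells had 58.9 to 92.6 CPM, and plasma cells, at 16.1 to 28.3 CPM, were lowest in every library. Among T subsets, activated CD4 T cells had 358 to 469 CPM and Ly49 T cells 583 to 689 CPM.

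Tumour cells had less Ifngr1 in KO IgG than in the other libraries, opposite to B cells. They had 143 CPM (126 to 162, 251 UMIs) in WT IgG, 118 (102 to 136, 192 UMIs) in WT anti-PD-1, 74.8 (65.0 to 85.7, 208 UMIs) in KO IgG and 114 (99 to 131, 206 UMIs) in KO anti-PD-1. KO IgG was the low library, by log2 −0.93 (−1.21 to −0.66) against WT IgG and with 0.61 (0.32 to 0.89) from KO IgG to KO anti-PD-1. With each cell thinned to 1000 UMIs the first ratio was 0.01 (−1.19 to 1.33). The tumour cells of the libraries came from different sub-clusters. A sub-cluster led by Lypd8 and Tm4sf4 held 17, 17, 1 and 10 cells, and 1 led by Try5 and Akr1c18 held 14, 7, 56 and 17. In the 3 sub-clusters with at least 10 cells in every library, with 61, 57, 107 and 74 cells, Ifngr1 gave log2 −0.37 (−0.87 to 0.13) for KO IgG against WT IgG. There KO anti-PD-1 against KO IgG was −0.41 (−0.97 to 0.14), the opposite sign. These shared sub-clusters include a shallow group led by the ribosomal gene Rps26, with a median of 2873 UMIs. Its median mitochondrial share was 0.305% in WT IgG, 0.628% in WT anti-PD-1, 4.79% in KO IgG and 4.01% in KO anti-PD-1. The shared cells thus also differed between genotypes.

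Ifngr2, the chain that carries JAK2 and limits the response of T cells, was concentrated in naive CD4 cells among T cells. Naive CD4 T cells had 108 CPM (115 UMIs), 131 (81), 113 (43) and 82.3 (4). Activated CD8 T cells had 9.16, 6.26, 0 and 0 CPM, and activated CD4 T cells 20.1, 6.76, 11.9 and 14.1 CPM. The level over all T cells was 36.5 CPM (167 UMIs), 25.8 (113), 36.0 (64) and 8.33 (16). KO anti-PD-1 was the low library. Its log2 ratio was −2.11 (−3.00 to −1.30) to KO IgG and −1.63 (−2.49 to −0.87) to WT anti-PD-1. It was also the library with 33 naive CD4 T cells, against 266 to 451 in the others. NK cells had 8.12, 2.82, 10.9 and 1.94 CPM, on 1 to 6 UMIs, so little of this chain was detected in them. Across the 36 class and library points Ifngr2 ran against Ifng (r = −0.655) while Ifngr1 ran with it (r = 0.637).

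Myeloid cells carried Ifngr2 in every library. Monocytes and macrophages had 119, 122, 121 and 87.5 CPM, with KO anti-PD-1 below KO IgG by log2 −0.47 (−0.65 to −0.29). Neutrophils had 75.6 to 93.7 CPM, conventional dendritic cells 66.8 to 89.1, migratory dendritic cells 71.7 to 98.6 and B cells 32.4 to 74.9. Tumour cells had 71.8 CPM (126 UMIs), 59.5 (97), 45.3 (126) and 43.7 (79). KO IgG was below WT IgG there by log2 −0.66 (−1.03 to −0.30), but in the sub-clusters present in every library the ratio was 0.24 (−0.48 to 1.00) and after thinning 0.53.

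**Figure D3:**
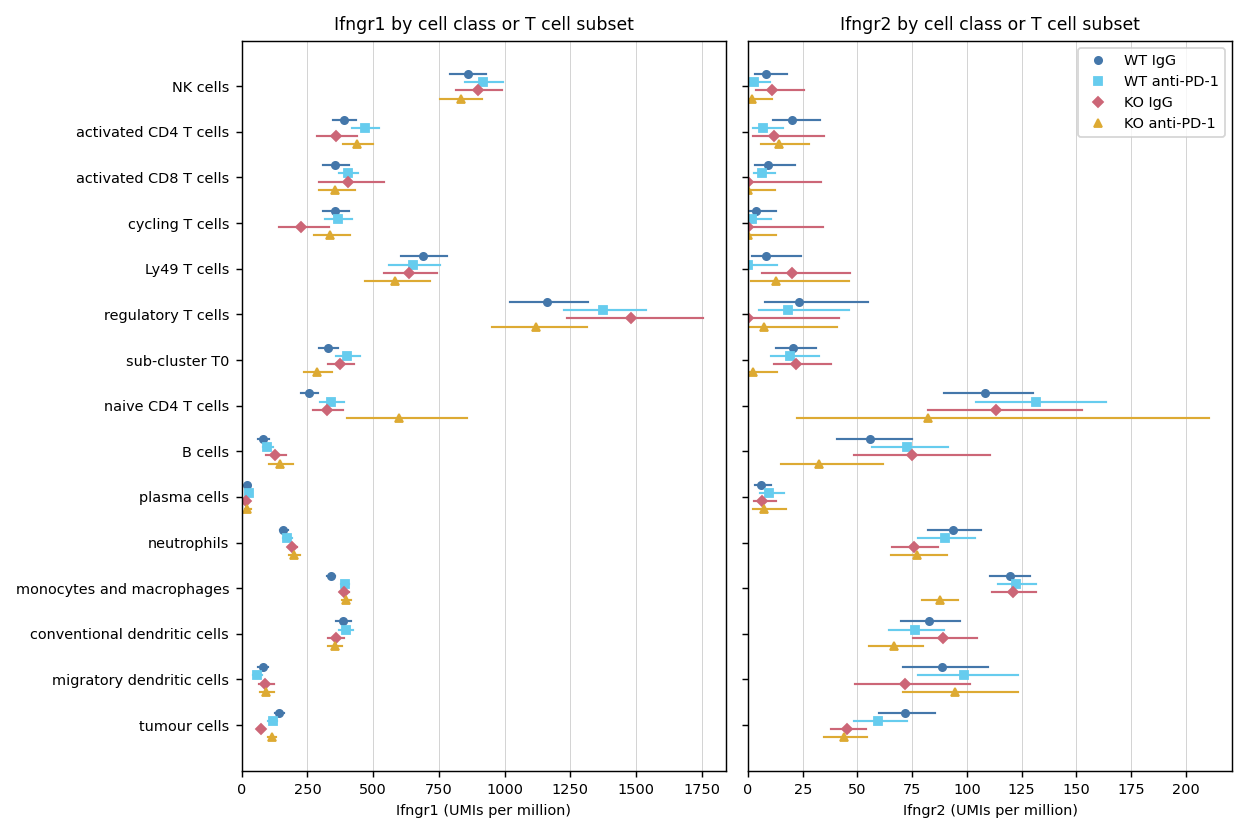
Levels of the receptor chains Ifngr1 and Ifngr2 by cell class or T cell subset and library, in CPM on the horizontal axis, with 95% counting intervals. Ifngr1 is highest in regulatory T cells, followed by NK cells (833 to 919 CPM). Ifngr2 is low in NK cells (1.94 to 10.9 CPM).

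Jak1, the kinase on IFNGR1 and on many other cytokine receptors, was highest in NK cells, followed by T cells. NK cells had 645, 721, 610 and 565 CPM, T cells 380, 393, 431 and 320, B cells 299, 275, 294 and 231, and neutrophils 279, 300, 315 and 270. B cells and neutrophils overlap in this order. Plasma cells, at 17.9 to 24.4 CPM, were lowest in every library. Monocytes and macrophages had 130, 148, 135 and 108 CPM. In them KO anti-PD-1 was lowest, by log2 −0.32 (−0.49 to −0.15) against KO IgG, while WT anti-PD-1 was above WT IgG by 0.19 (0.05 to 0.33). Tumour cells had 55.8 CPM (98 UMIs), 58.3 (95), 53.6 (149) and 34.9 (63), KO anti-PD-1 again being lowest, by −0.74 (−1.22 to −0.27) against WT anti-PD-1. Within the shared tumour sub-clusters that ratio was 0.10 (−0.82 to 1.06).

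Jak2, the kinase on IFNGR2, was highest in migratory dendritic cells, at 354, 384, 350 and 301 CPM. Neutrophils followed, at 233, 214, 203 and 143 CPM, and conventional dendritic cells, at 155, 155, 166 and 142. In neutrophils KO anti-PD-1 was the low library, with a log2 ratio of −0.50 (−0.72 to −0.29) to KO IgG and −0.58 (−0.80 to −0.36) to WT anti-PD-1, both just under the 1.5-fold limit. T cells, at 57.0 to 68.3 CPM, B cells, at 36.8 to 59.9, and NK cells, at 41.9 to 50.1, lay close together. Monocytes and macrophages, at 29.4 to 36.3 CPM, and tumour cells, at 21.0 to 34.2, were lower, so dendritic cells stood above monocytes and macrophages in Jak2.

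Irf1, the early transcription factor of the response, was lowest in KO IgG in 7 of the 9 classes. Only in monocytes and macrophages, neutrophils and tumour cells did the KO IgG interval lie below that of WT IgG. In T cells, B cells and both classes of dendritic cells these intervals overlapped. Irf1 was higher with anti-PD-1 in macrophages and neutrophils of both genotypes. In monocytes and macrophages it stood at 29.7 CPM (25.4 to 34.6, 164 UMIs) in WT IgG, 45.6 (40.5 to 51.1, 293 UMIs) in WT anti-PD-1, 19.6 (15.8 to 24.0, 94 UMIs) in KO IgG and 35.1 (30.1 to 40.7, 176 UMIs) in KO anti-PD-1. KO IgG was lowest and WT anti-PD-1 highest, and neither interval overlapped the WT IgG one. KO IgG against WT IgG was log2 −0.60 (−0.98 to −0.23). The antibody ratio was 0.62 (0.34 to 0.90) in WT and 0.84 (0.48 to 1.22) in KO, which differed by 0.23 (−0.23 to 0.68). Under anti-PD-1, KO was below WT by −0.38 (−0.65 to −0.10).

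The same order held in neutrophils, which numbered 1698 to 2762 cells per library. Irf1 stood there at 123 CPM (110 to 137, 316 UMIs) in WT IgG, 193 (175 to 213, 403 UMIs) in WT anti-PD-1, 85.3 (74.6 to 97.2, 228 UMIs) in KO IgG and 160 (142 to 179, 302 UMIs) in KO anti-PD-1. The 4 intervals do not overlap except at the edge of WT anti-PD-1 and KO anti-PD-1. The antibody ratio was log2 0.65 (0.43 to 0.87) in WT and 0.91 (0.65 to 1.16) in KO. KO IgG against WT IgG was −0.53 (−0.78 to −0.28).

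Within clusters the pattern varied, and the cluster values are given without intervals. Of the neutrophil clusters, that led by Retnlg had 121, 176, 89.5 and 163 CPM of Irf1, and that led by Siglecf had 94.1, 135, 72.9 and 118. A small cluster led by Rsad2, a gene that interferons induce, with 40 to 107 cells, had 53.6, 345, 96.0 and 227 CPM. It held 111950, 72560, 104119 and 30813 UMIs of all genes. Few Irf1 UMIs stand behind these values, so its IgG libraries were not ordered. Among the monocyte and macrophage clusters, that led by Gpnmb and Trem2 had 21.0, 36.9, 10.6 and 24.4 CPM, and that led by Arg1 had 21.7, 52.7, 21.4 and 36.3, so its IgG libraries were nearly equal. In the classical monocyte cluster, led by F13a1 and Vcan, the values were 54.3, 42.1, 36.7 and 40.8 CPM, with no gain under the antibody in WT. The non-classical monocyte cluster, led by Ace, had 80.2, 58.4, 34.9 and 65.0, also with no gain under the antibody in WT. Its KO IgG value came from 41 cells with 85840 UMIs of all genes, and so from few Irf1 UMIs. With the clusters held at their WT IgG shares, Irf1 in monocytes and macrophages gave log2 −0.52 for KO IgG against WT IgG, 0.61 for the antibody in WT and 0.71 in KO. In neutrophils the same values were −0.55, 0.68 and 1.02.

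In tumour cells Irf1 stood at 31.9 CPM (24.1 to 41.4, 56 UMIs) in WT IgG, 41.1 (31.9 to 52.2, 67 UMIs) in WT anti-PD-1, 16.9 (12.4 to 22.5, 47 UMIs) in KO IgG and 28.2 (21.0 to 37.1, 51 UMIs) in KO anti-PD-1. Only the KO IgG interval lies below that of WT IgG. KO IgG against WT IgG was log2 −0.92 (−1.51 to −0.33), the antibody ratio was 0.37 (−0.17 to 0.90) in WT and 0.74 (0.14 to 1.34) in KO. With the mean of single-cell CPM these were −1.53, −0.36 and 1.60, so the WT antibody ratio changed sign, and KO anti-PD-1 against WT anti-PD-1 went from −0.54 to 0.43. In the shared sub-clusters KO IgG against WT IgG was −0.66 (−1.78 to 0.45), on 15 and 16 UMIs. Immediate-early and heat-shock genes, which digestion of tissue can raise, moved the same way in these cells. Of 15 measured, 11 were lower and 1 higher in KO IgG than in WT IgG, with a median of −1.11, and 9 were higher in KO anti-PD-1 than in KO IgG. Of all genes tested in tumour cells, 31.3% and 27.7% passed 1.5-fold in these comparisons. Their part in the Irf1 result of tumour cells was not tested. In monocytes and macrophages 3 of 16 such genes were higher and none lower in KO IgG against WT IgG, with a median of 0.05. There 10.6% of all genes passed.

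Conventional dendritic cells had 30.5, 37.1, 17.3 and 30.5 CPM of Irf1, on 29 to 73 UMIs, again lowest in KO IgG. Migratory dendritic cells had 126, 124, 82.9 and 112 CPM and T cells 58.8, 71.9, 43.9 and 61.4. NK cells had 86.6 (66.7 to 111), 85.9 (65.7 to 110), 102 (75.3 to 136) and 73.8 (52.2 to 101) CPM, on 38 to 64 UMIs. Their KO IgG value was the highest, but these intervals overlap, so the libraries were not ordered. Whether Irf1 in NK cells depends on their Ifng was not tested. B cells had 27.0 to 36.0 CPM and plasma cells 8.87 to 21.4. Over the 36 points Irf1 was more like Jak2 (r = 0.699) and Socs1 (0.673) than Ifng (0.347). The genes most like it were Sik3 (0.905), Stx11 (0.893), Icam1 (0.888), Mxd1 (0.871) and Cdc42ep3 (0.870).

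Socs1, the feedback inhibitor of the kinases, was highest in migratory dendritic cells, or in T cells in WT IgG, and was higher with anti-PD-1 in monocytes and macrophages. Monocytes and macrophages had 3.81 CPM (2.36 to 5.82, 21 UMIs) in WT IgG, 8.56 (6.45 to 11.1, 55 UMIs) in WT anti-PD-1, 2.71 (1.44 to 4.63, 13 UMIs) in KO IgG and 10.4 (7.76 to 13.6, 52 UMIs) in KO anti-PD-1. The anti-PD-1 intervals lie above those of IgG. The antibody ratio was log2 1.17 (0.42 to 1.97) in WT and 1.94 (1.04 to 2.94) in KO. Conventional dendritic cells had 6.10 (11 UMIs), 19.3 (38), 12.6 (21) and 16.7 (29) CPM, lowest in WT IgG, with an antibody ratio of 1.66 (0.67 to 2.78) in WT. Neutrophils had 13.6, 18.7, 9.36 and 14.3 CPM, on 25 to 39 UMIs.

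In tumour cells Socs1 stood at 12.0 CPM (7.40 to 18.3, 21 UMIs) in WT IgG, 13.5 (8.46 to 20.4, 22 UMIs) in WT anti-PD-1, 5.04 (2.75 to 8.45, 14 UMIs) in KO IgG and 17.2 (11.7 to 24.4, 31 UMIs) in KO anti-PD-1. The KO IgG level was lowest, with log2 1.77 (0.82 to 2.79) from KO IgG to KO anti-PD-1, −1.25 (−2.34 to −0.20) against WT IgG and intervals that meet those of WT. In the shared sub-clusters the UMIs numbered 2, 2, 0 and 13. Migratory dendritic cells had 44.3, 69.2, 58.3 and 78.3 CPM, NK cells 31.1, 38.0, 37.1 and 50.5, and T cells 45.0, 39.5, 44.4 and 27.1. In T cells, KO anti-PD-1 was the low library, by −0.72 (−1.25 to −0.19) against KO IgG, opposite to the direction in macrophages. The genes most like Socs1 over the 36 points were Gm12216 (0.927), Tnfrsf9 (0.877), Lysmd2 (0.872), Ccl5 (0.866) and Serpinb9 (0.858).

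**Figure D4:**
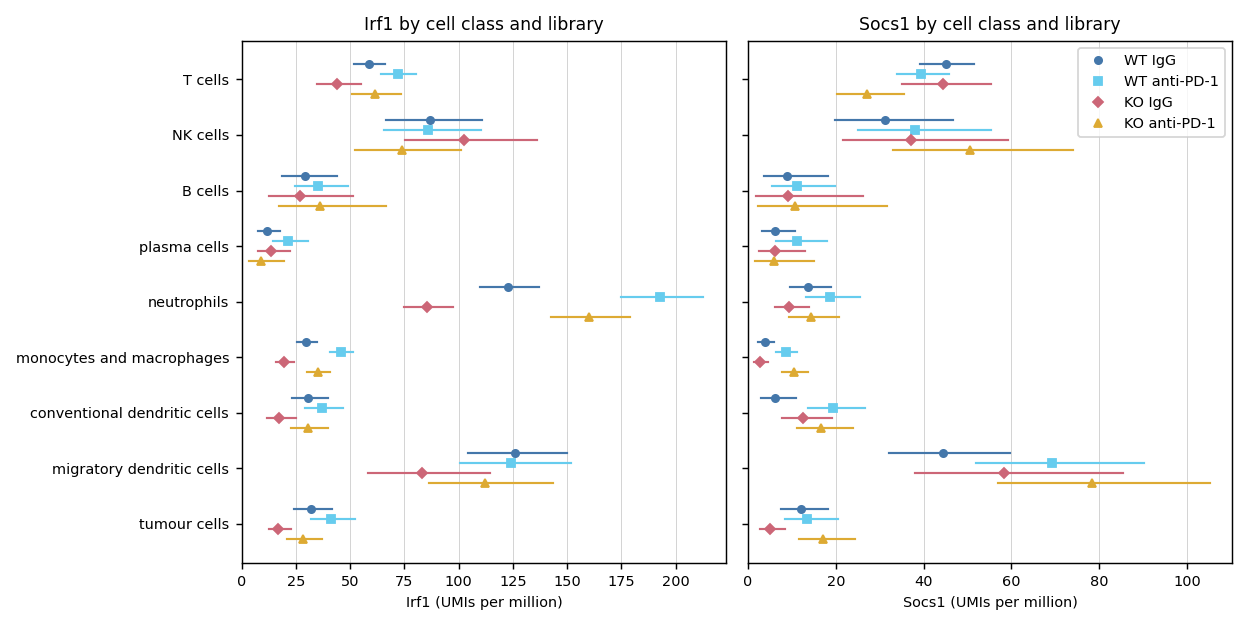
Irf1 and Socs1 by cell class and library, in CPM with 95% counting intervals. Irf1 is lowest in KO IgG in monocytes and macrophages (19.6 CPM), neutrophils (85.3 CPM) and tumour cells (16.9 CPM), and Socs1 in monocytes and macrophages is higher in the anti-PD-1 libraries (8.56 and 10.4 CPM) than with IgG (3.81 and 2.71 CPM).

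Counted by comparison, the 7 genes passed 1.5-fold at rates given here beside the share of all genes tested that passed it in either direction. In T cells 1 of 7 was past the limit in KO IgG against WT IgG (14.3% of all genes tested), 0 in WT anti-PD-1 against WT IgG (9.97%), 3 in KO anti-PD-1 against KO IgG (23.4%) and 1 in KO anti-PD-1 against WT anti-PD-1 (18.5%). Of these, Ifng was lower in the first and higher in the third, where Ifngr2 and Socs1 were lower, and Ifngr2 was lower in the last. In NK cells the counts in the same order were 0, 0, 1 and 0 of 6 (20%, 17.8%, 24.3% and 23.5%), Ifng being the 1.

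In monocytes and macrophages 1 of 6 passed in KO IgG against WT IgG (10.6% of all genes), 2 with anti-PD-1 in WT (9.14%), 2 with anti-PD-1 in KO (16.7%) and 0 between the anti-PD-1 libraries (15.5%). All 5 were Irf1 or Socs1, and the receptor chains and kinases stayed under the limit. In neutrophils the counts were 0, 1, 2 and 0 of 6 (16.5%, 12.1%, 18.5% and 21.5%), again Irf1 or Socs1. The neutrophil Socs1 value, log2 0.61 (−0.23 to 1.46) for KO anti-PD-1 against KO IgG, turned to −0.31 with at least 500 genes per cell, −0.10 with at least 1000 UMIs and −0.12 after thinning. In tumour cells they were 4, 0, 4 and 1 of 6 against 31.3%, 18.0%, 27.7% and 30.9% of all genes. The first 4 were Ifngr1, Ifngr2, Irf1 and Socs1, all lower in KO IgG. The second 4 were Ifngr1, Irf1 and Socs1, higher in KO anti-PD-1, and Jak1, lower, and Jak1 was also the 1 lower in KO anti-PD-1 than in WT anti-PD-1.

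In conventional dendritic cells the counts were 2, 1, 1 and 0 of 6 (15.8%, 13.9%, 19.8% and 22.1%). Irf1 was lower and Socs1 higher in KO IgG than in WT IgG, Socs1 was higher with anti-PD-1 in WT and Irf1 with anti-PD-1 in KO. In migratory dendritic cells they were 1, 1, 0 and 1 of 6 (23.0%, 17.7%, 26.4% and 24.9%), near the background. The comparisons share libraries in pairs, so their counts do not stand independently of each other.

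**Figure D5:**
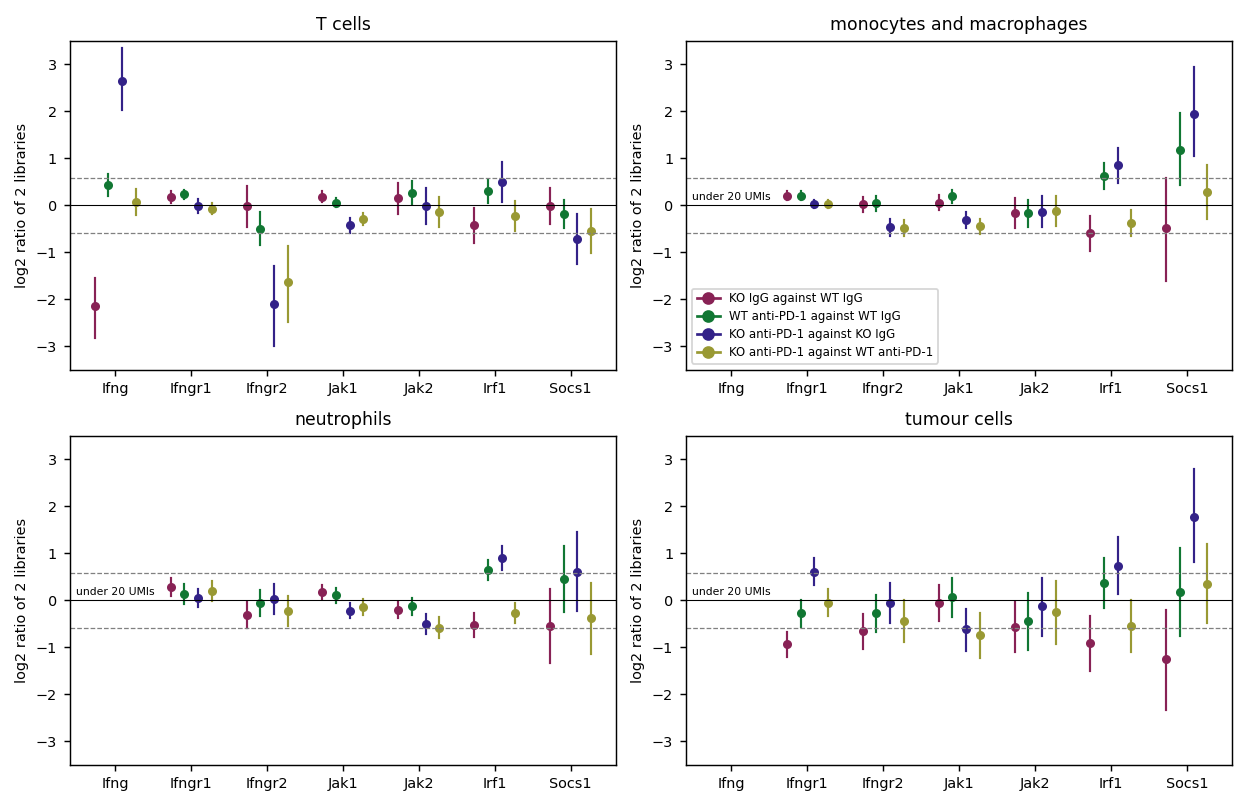
Log2 ratios of the 7 genes in T cells, monocytes and macrophages, neutrophils and tumour cells for the 4 pairs of libraries, with 95% counting intervals and dashed lines at 1.5-fold. Ifng has points only in T cells, since it had under 20 UMIs in the other panels. In T cells Ifng, Ifngr2 and Socs1 pass the lines, and in monocytes and macrophages Irf1 and Socs1. Irf1 also passes in neutrophils, where Socs1 does so only for KO anti-PD-1 against KO IgG, with an interval of −0.23 to 1.46. In tumour cells Ifngr1, Ifngr2, Jak1, Irf1 and Socs1 pass.

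Genes that induce or receive the signals for Ifng moved less than Ifng in T cells. Of 10 measured in KO IgG against WT IgG, 1 was lower past 1.5-fold and none was higher, where 14.3% of all genes passed. The median log2 was 0.12 against 0.08 over all genes tested. The lowest was Il12rb1, a chain of the IL-12 receptor, at −1.44, followed by Tbx21, the T helper factor T-bet, at −0.15, and the highest were Il18rap at 0.33 and Stat4 at 0.24. In KO anti-PD-1 against KO IgG 3 of 9 were higher and 1 lower, where 23.4% of all genes passed. Il12rb1 stood there at 1.54, Tbx21 at 0.87, Stat4 at −0.82 and Runx3 at −0.36. Of 10 other cytokine and effector genes in T cells, 2 were lower in KO IgG than in WT IgG, Gzmb at −1.11 and the death ligand Fasl at −0.71. Xcl1 was at 0.55 there, and 2 of 10 is near the 14.3% of all genes that passed. In KO anti-PD-1 against KO IgG 7 of the 10 were higher and 1 lower (median 1.03, all genes 0.05, with 23.4% passing), led by Gzmb at 2.49 and Ccl4 at 2.38, with Tnf at −0.70. In WT anti-PD-1 against WT IgG 6 were higher and 1 lower (median 0.86, all genes 0.11, with 9.97% passing), led by Ccl4 at 1.48 and Ccl5 at 1.45, with Tnf at −0.83.

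The 27 listed genes that interferon gamma induces were counted the same way, with a log2 ratio for each gene that had at least 20 UMIs in a pair of libraries. A gene without UMIs in 1 library entered the median at 3 UMIs. In monocytes and macrophages 16 of 22 were lower and none higher in KO IgG than in WT IgG, with a median of −0.76 against 0.04 over all genes, and all-gene medians were between −0.12 and 0.11 in every comparison of this kind given here. The lowest were the serpin Serpina3g (−1.64) and the GTPase Iigp1 (−1.51), and the highest were Cd274, which encodes PD-L1 (0.07), and Gbp6 (−0.10). With anti-PD-1 in WT 19 of 24 were higher, with a median of 0.73, led by Nos2 (3.21) and Tgtp2 (1.81), with Fcgr1 (0.04) and Ciita (0.24) at the other end. With anti-PD-1 in KO 18 of 23 were higher and 1 lower, with a median of 0.90, led by Serpina3g (2.82) and Gbp2 (1.69). Nos2, the nitric oxide synthase of activated macrophages, stood there at −0.65 and Cd274 at −0.41. Under anti-PD-1, KO was below WT for 10 of 24, with Nos2 at −2.07 and Iigp1 at −1.86, a median of −0.45, and Gbp6 (0.00) and Ifi47 (−0.01) highest. In the same order of comparisons 10.6%, 9.14%, 16.7% and 15.5% of all genes in this class passed 1.5-fold in either direction.

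Neutrophils and tumour cells had the same sign in the first 3 comparisons. In neutrophils 15 of 18 target genes were lower in KO IgG than in WT IgG (median −0.96), led by the chemokines Cxcl9 (−2.30) and Cxcl10 (−2.23). With anti-PD-1 10 of 20 were higher in WT (median 0.60) and 13 of 17 in KO (median 0.75). Cxcl9 was highest both times, at 1.48 and 2.89. Of all genes tested in neutrophils, 16.5%, 12.1% and 18.5% passed 1.5-fold in these comparisons. In tumour cells 6 of 9 were lower in KO IgG (median −0.82), with Iigp1 at −1.81, Ifi47 at −1.25 and Cd274 at 0.34. With anti-PD-1 17 of 18 were higher in WT (median 1.78), led by Cxcl9 (5.75, from 2 to 100 UMIs) and Cxcl10 (2.94), and 15 of 15 in KO (median 2.38), where Iigp1 stood at 3.65. Cxcl9 went from 0 to 29 UMIs in KO tumour cells. Of all genes tested in tumour cells, 31.3%, 18.0% and 27.7% passed in these comparisons. A gene that reached 20 UMIs through 1 library alone had to differ, and 9 to 18 of the 27 were measured here. In the tumour sub-clusters present in every library the medians were −1.66, 0.33 and 2.31 for these 3 comparisons. Markers of T cells in the tumour cells summed to 54.1, 46.0, 24.1 and 64.2 CPM, with Cd5 at 0 in 3 libraries, and their part was not tested. T cells had 5 of 21 target genes lower in KO IgG (median −0.30), and 3 of 22 and 8 of 20 higher with anti-PD-1 in WT and KO, with 1 of the 20 lower. Of all genes 14.3%, 9.97% and 23.4% passed in these comparisons, and 3 of 22 is near its share.

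Other signalling genes and regulators moved in part. In monocytes and macrophages Usp18, an inhibitor of type I interferon signalling, stood at −0.82 in KO IgG against WT IgG. In tumour cells 4 of 13 were lower and 2 higher in KO IgG, where 31.3% of all genes passed, with Cish at −1.45 and Socs3 at −1.13 lowest and Socs2 at 1.19 and Pias4 at 0.66 highest. In KO anti-PD-1 against KO IgG 5 of 14 tumour cell genes were higher and 1 lower, where 27.7% of all genes passed, with Usp18 at 2.81.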

How the data were processed

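The members were chosen by name, and the members, lists and markers were chosen with earlier results of these data known. The deposited values are counts of UMIs per gene and cell, which the file headers attribute to Cell Ranger 3.0.0. Per the submitters' processing notes bcl2fastq was also used and the build was hg19, a human one, while the gene identifiers are mouse, so the build is not given here and only RefSeq windows carry coordinates. Cells with under 200 genes, over 10% mitochondrial UMIs or a Scrublet score above 0.25 (expected doublet rate 0.05) were removed: 9 to 19, 320 to 398 and 82 to 104 per library. Clustering used scanpy 1.11.5 and igraph 0.11.9 with 2000 variable genes, 30 components, 15 neighbours and resolution 1, leaving out 96 genes of the members and lists, and gave 25 clusters. Clusters were named from 35 marker lists by a rule written after they were seen (score of at least 1, margin of 0.5, at least 3 markers in 10% of cells). T, NK and epithelial cells were clustered again. UMIs were summed per class and library, given as CPM with exact Poisson 95% intervals, shares with Clopper-Pearson intervals and ratios with the exact conditional interval of a pair of counts (scipy 1.17.1). A ratio needed 20 UMIs in both libraries together, and 1.5-fold names a difference. The genes named in a list are the 2 highest and 2 lowest in each comparison (not all are printed, and some items are not reported here) and the 5 likest genes by Pearson r. TMM factors came from edgeR 4.0.16 in R 4.3.3. The ratios and intervals were tested on simulated data. Clusters named plasmacytoid dendritic cells, alveolar macrophages, endothelial cells and fibroblasts had under 50 cells in a library and are not described.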

Additional observations from a re-analysis of the deposited data

Results flagged for a closer look

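Ifngr1 in tumour cells had an antibody ratio of opposite sign in the 2 genotypes, log2 −0.28 in WT and 0.61 in KO, which differ by 0.89 (0.50 to 1.28). The difference has no test beyond counting error, since each group is 1 library, and in the sub-clusters present in every library the KO ratio was −0.41.

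Jak1 in monocytes and macrophages likewise went up with anti-PD-1 in WT (log2 0.19) and down in KO (−0.32), a difference of −0.51 (−0.72 to −0.29). It was not tested over animals. Club cell RNA was highest in KO anti-PD-1, where Jak1 was lower (196 CPM of club cell RNA in this class, against 33.9 in KO IgG). Its part was not tested.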

How the results depend on the processing

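No paired analysis was possible because each group is 1 library and the labels carry no replicate numbers; for the same reason no library could be left out. The 12 ratios of Ifng in T cells and of Irf1 in monocytes and macrophages and in tumour cells were recomputed under 13 planned settings and, where they apply, 2 chosen after seeing the data, 168 values in all, and 159 stayed within the counting interval of the value reported. With each cell thinned to 1000 UMIs, Ifng in T cells was log2 −2.83 for KO IgG against WT IgG and 0.18 for WT anti-PD-1 against WT IgG, and Irf1 in tumour cells was 0.42 for KO anti-PD-1 against WT anti-PD-1. With the mean of single-cell CPM in place of summed UMIs, Irf1 in tumour cells was −1.53 for KO IgG against WT IgG, −0.36 for WT anti-PD-1 against WT IgG, 1.60 for KO anti-PD-1 against KO IgG and 0.43 for KO anti-PD-1 against WT anti-PD-1. With T subsets at their WT IgG make-up, Ifng was −0.06 for the antibody in WT and 1.45 in KO. Over all 208 ratios and list medians, 2640 values were recomputed. Of these 2523 stayed, 109 left the interval (for list medians, moved by 1.5-fold) and 8, all from values past 1.5-fold, changed sign. Sign changes of values under 1.5-fold were counted with those that stayed or left. Socs1 in neutrophils, KO anti-PD-1 against KO IgG, was −0.31 with at least 500 genes per cell, −0.10 with at least 1000 UMIs and −0.12 after thinning. For KO IgG against WT IgG in tumour cells, thinning gave Ifngr1 0.01 and Ifngr2 0.53, and the sub-clusters present in every library gave Ifngr2 0.24. In those sub-clusters Ifngr1 was −0.41 for KO anti-PD-1 against KO IgG and Jak1 0.10 for KO anti-PD-1 against WT anti-PD-1. For these the cause was not tested; thinning and the shared sub-clusters leave few UMIs. TMM and median-of-ratios scaling shifted a class by at most 0.124 (over 0.1 in 5 of 56 cases). It turned the sign of no value past 1.5-fold, while some values near 0 changed sign. Subtracting free RNA moved none of the Ifng ratios out of its interval. Depth limits Socs1 in every myeloid and tumour comparison and Ifng in KO IgG T cells.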
